A study of Mus musculus with 4 samples.

Results

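The cytosolic ribosomal protein genes were compared between MC38 tumours of vanoxerine-treated and saline-treated mice. The genes were chosen by name: protein-coding genes whose symbol begins with Rpl or Rps and a digit, together with Rplp0, Rplp1, Rplp2 and Rpsa, without the S6 kinase genes and without pseudogenes. The rule took 86 of 54115 annotated genes, and 84 of them were among the 18758 genes tested. They were 43 genes of the large subunit, 3 genes of its stalk, 31 genes of the small subunit, 8 paralogues and Rps19bp1. The last encodes a protein that binds Rps19 and is no part of the ribosome, and only its symbol places it here. The 77 genes of the subunits and the stalk are called the core genes below.

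MC38 is a mouse colon adenocarcinoma cell line, and each tumour arose from injected MC38 cells. Controls received saline and treated mice received vanoxerine, a dopamine transporter inhibitor, at 25 mg/kg, in both groups by intraperitoneal injection on 10 successive days, and each group had 2 libraries. The sources used here do not give strain, age, sex or the number of animals, and nothing states that libraries came from separate animals, so p-values measure only the spread between libraries. The libraries are of whole tumours, in which tumour cells and host cells are read together.

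The cytosolic ribosome is built from a large and a small subunit, each made of ribosomal RNA and of proteins that are mostly present once per particle. Many ribosomal protein mRNAs begin with a C followed by an unbroken run of pyrimidines, the terminal oligopyrimidine motif, through which mTORC1 signalling controls their translation. Growing and dividing cells make these mRNAs in large amounts, so they are among the most abundant transcripts of a tumour.

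The depth was 67289273 to 75748162 estimated reads per library. Among genes with at least 100 reads in each library, 62.2% differed between saline 1 and saline 2 and 32.8% between vanoxerine 1 and vanoxerine 2 beyond the 5% limit of sampling noise. These are estimated reads, whose spread can exceed that limit for other reasons, so this does not show separate animals. All were counted as separate libraries. Epithelial markers were low: of 10 listed, Cdx2 was at 0 in every library, and together they reached 18.3 and 21.5 CPM (reads scaled to a common library size) in saline and 36.0 and 37.8 CPM in vanoxerine. Most of this was Cdh1, at 11.3 and 13.5 CPM in saline and 25.4 and 27.6 CPM in vanoxerine. By the edgeR test used below, 3 of the 7 tested were higher in vanoxerine (Cdh1, Epcam and Krt19) and 1 lower (Cldn4). The shares among all tested genes were 21% and 15.9%. At these low levels the label of a colon adenocarcinoma could not be checked on those markers.

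The starts of several core genes show the pyrimidine run, and the windows here cover 5 bases before the annotated start and 25 bases from it, with the longest run that begins with C in capitals. They come from RefSeq promoters on GRCm38.p6 and read 5′ to 3′ along the gene's strand. The set has genes with long runs that fell by different amounts, then genes without a long run in the window shown, among them those with the largest falls. The Rps15 window reaches only just past the start of the gene counted here (chr10:80292453), so it cannot show whether that start has a run.
Rpl13a, chr7:45128721-45128750, minus strand: gacaagaCCTCCTCCTTTCCCaggcggctg
Rpl28, chr7:4792960-4792989, plus strand: tgtCTCTCTTTCCgtctccggccgccatag
Rpl35a, chr16:33056477-33056506, plus strand: CCTTCCTCTTTCCgccatcttggcgcctgt
Rps10, chr17:27635220-27635249, minus strand: cgCCCCTTCCTTTCCagcctccgcctcgga
Rps6, chr4:86857343-86857372, minus strand: cgggCCTCTTTTTCgtgacgcctcccaggc
Rps9, chr7:3704036-3704065, plus strand: CTCTCTTTgtctcgggcctgagttcgtagg
Rps15, chr10:80292426-80292455, plus strand: CTCgcgataactgcgcaagcgcagcccgta
Rpl41, chr10:128549144-128549173, minus strand: ggCTCggaagtgacgacaccgagcacgcca
Rps27l, chr9:66946081-66946110, plus strand: ccgccgCCTCTatcccggaagttgctgagg

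Of the 86 genes, 66 had a RefSeq promoter. A run of at least 6 pyrimidines beginning with C lay in 52.2% of the 67 windows of core genes and in 20.1% of all 32851 windows. Over the whole promoter of 250 bases before and 50 after the start, CTTTC on the gene's strand was found in 67.2% of core windows against 34.8% of all, and on the other strand in 41.8% against 34.1%. CCGGAAG on either strand was in 37.3% against 8.9%, CCATCTT on either strand in 16.4% against 6.3%, and TATAAA on either strand in 9.0% against 13.6%. These are matches of letters and not mapped sites, and CTTTC can overlap the pyrimidine run. The 32 core genes with such a run in at least 1 window had a median log2 fold change of -0.62, and the 25 without one had -0.53. The ranges of both overlapped, from -1.01 to -0.20 with a run and from -1.23 to -0.13 without.

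Ribosomal protein transcripts made up a smaller part of the vanoxerine libraries. Saline 1 and saline 2 gave them 9.96% and 10.9% of the reads assigned to genes, vanoxerine 1 and vanoxerine 2 gave 6.68% and 6.63%, and the means differed by -3.76 percentage points. Of the summed TPM (a level per transcript length, scaled to a common total), they held 21.1% and 22.2% in saline and 15.9% and 15.7% in vanoxerine. Both shares were lower in each vanoxerine library than in either saline library. A single share cannot reach significance with so few libraries, since an exact two-sided permutation test goes no lower than p = 0.333. Fewer cells of a type and less RNA per cell cannot be told apart in these bulk libraries.

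**Figure D1:**
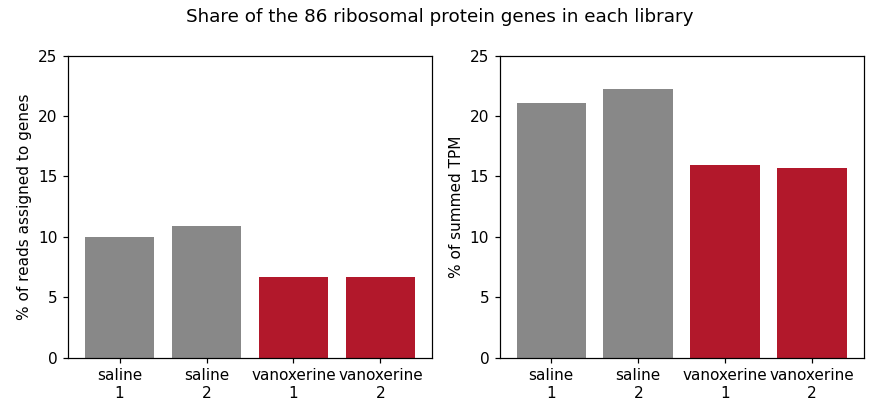
Share of the 86 ribosomal protein genes in each library, as a percentage of reads assigned to genes (left) and of summed TPM (right), with 1 bar per library. Both vanoxerine bars (red) lie below both saline bars (grey): 6.63% and 6.68% against 9.96% and 10.9% of reads.

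Gene by gene, 78 of the 84 tested members were lower in vanoxerine and 0 were higher, by edgeR's quasi-likelihood test with a Benjamini-Hochberg adjusted p under 0.05. Over all tested genes the same call was made lower for 15.9% and higher for 21% (DESeq2 called 13.2% lower and 19% higher). Rpl39l was the 1 member with a fitted log2 fold change above 0, at 0.96 ± 0.80 (SE), and it is listed with 13, 14, 13 and 35 reads. Of the 77 core genes, 76 were lower, with a median log2 fold change of -0.59. The median of all tested genes was -0.01. In 76 core genes both vanoxerine CPM values lay below both saline values, a pattern found in 34.9% of all tested genes. Without vanoxerine 1 the test called 72 members lower, against 5.16% of all genes lower and 10.8% higher, and without vanoxerine 2 it called 69, against 4.87% and 10.3%. In both cases 0 members were higher.

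Both subunits moved by like amounts. Large-subunit genes were lower in 42 of 43 cases with a median of -0.61, the 3 stalk genes were all lower with -0.56, and the 31 small-subunit genes were all lower with -0.56. Large-subunit and stalk genes held 57.5% and 57.5% of the core reads in saline and 56.9% and 57.1% in vanoxerine. The order of levels was also kept: log2 TPM in vanoxerine against saline correlated across the 77 core genes with Pearson r = 0.92, as a description of genes that share the same libraries.

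**Figure D2:**
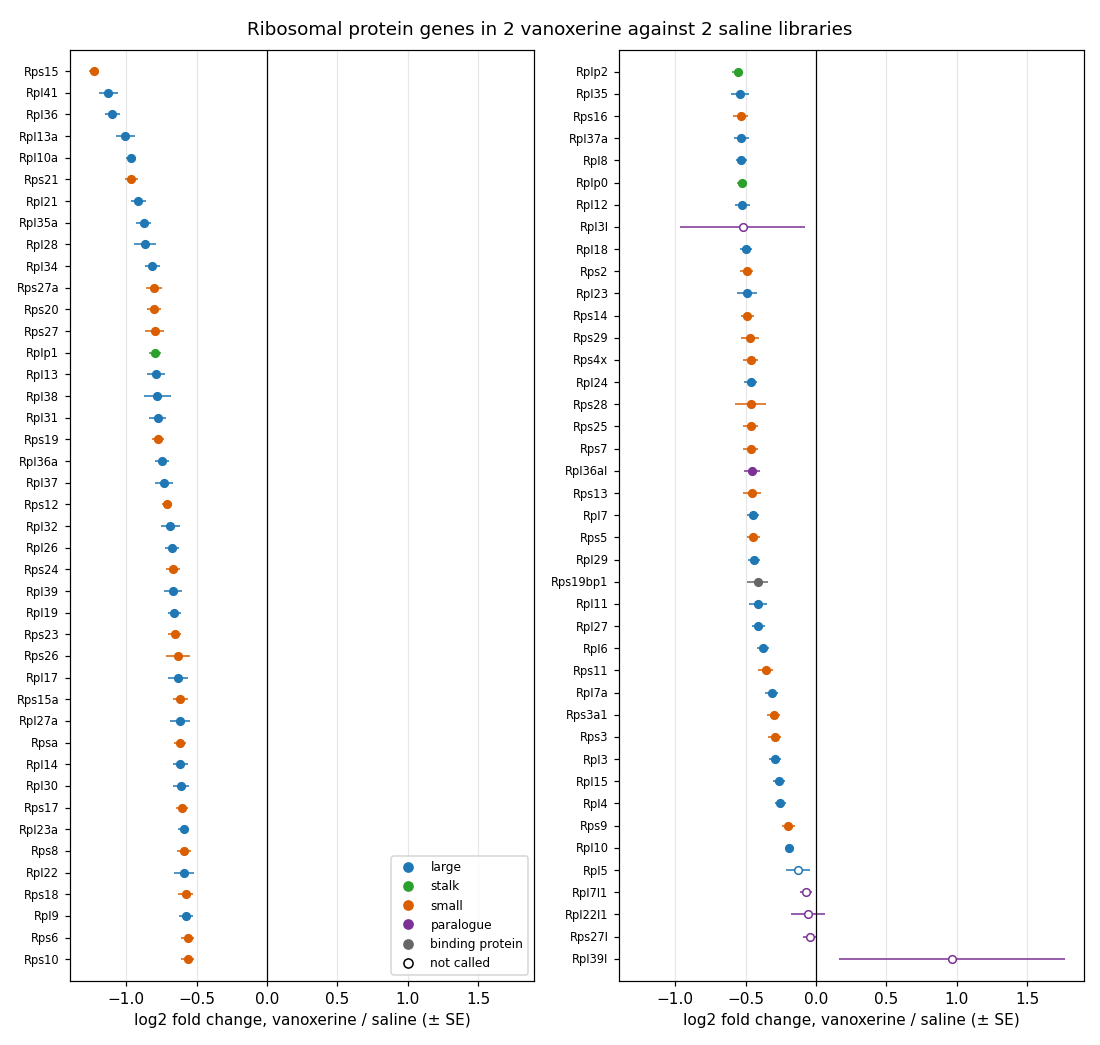
Log2 fold change of vanoxerine over saline with its standard error for the members reported here, sorted from the largest fall (top left) to the highest value (bottom right), coloured by class. Filled points were called by edgeR, and open points were not. The core genes lie below 0, from Rps15 at -1.23 to Rpl5 at -0.13, and the open points are Rpl5 and 5 paralogues.

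By edgeR on summed reads the largest fall was that of Rps15, a small-subunit protein of the head region (chr10:80292453-80294114, GENCODE M21 on GRCm38, as for all genes below). It had 1954 and 2042 CPM in saline and 843 and 861 CPM in vanoxerine. Its log2 fold change was -1.23 ± 0.04 (SE, edgeR adjusted p = 1.7e-05), and the groups did not overlap. Rpl41 (chr10:128548114-128549305), which encodes the smallest ribosomal protein, had 2098 and 2422 CPM against 1040 and 1027 CPM. Its log2 fold change was -1.13 ± 0.07 with an edgeR adjusted p of 0.00014. Rpl36 (chr17:56613416-56614243), of the large subunit, had 783 and 828 CPM against 362 and 390 CPM, a log2 fold change of -1.10 ± 0.05 (edgeR adjusted p = 6.8e-05). Rpl13a (chr7:45125558-45128761), a large-subunit protein with a further role known from human cells, in which it represses translation after interferon gamma, had 2333 and 2678 CPM against 1237 and 1255 CPM, a log2 fold change of -1.01 ± 0.07. These 4 genes were the members called lower at least 2-fold, and 3.26% of all tested genes passed that rule.

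Other large falls were those of Rpl10a at -0.97, Rps21 at -0.96, Rpl21 at -0.91, Rpl35a at -0.88 and Rpl28 at -0.87, with standard errors of 0.04 to 0.08. Rpl10a had 982 and 995 CPM in saline and 503 and 509 CPM in vanoxerine, but part of its reads can belong to a copy described below. Rps21 had 1101 and 1160 CPM against 569 and 591 CPM. Rpl28 had 672 and 792 CPM against 402 and 401 CPM. With the length offset and on log2(TPM + 1) it was Rpl28 that fell most, at -1.49 against -1.28 for Rps15 and at -1.25 against -1.04. The authors' deposited table gave it -1.48, against -1.27 for Rps15. Most of the Rpl28 TPM lay on a 312-base transcript with an effective length of 62 bases. That transcript had 2944 and 3135 TPM in saline and 980 and 1013 TPM in vanoxerine. The 772-base transcript, which held most reads of Rpl28, had 611 and 717 TPM against 537 and 533 TPM. On CPM, in all 5 genes the vanoxerine libraries were alike and lay apart from saline.

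On the per-length scale, the most abundant core genes in saline were Rpl41 with 7715 and 8240 TPM, Rpl13a with 5955 and 6750 TPM, Rps21 with 5968 and 6067 TPM, Rps2 with 5064 and 5764 TPM and Rplp1 with 5081 and 5211 TPM. In vanoxerine they had 3925 and 3919, 3270 and 3300, 3590 and 3708, 3688 and 3621, and 3502 and 3537 TPM. Across the core, the saline level spanned 16.7-fold between the lowest gene, Rpl12, and the highest. Among the stalk genes, whose proteins bind the elongation factors, Rplp1 changed by -0.79, Rplp2 by -0.56 and Rplp0 by -0.53 on the log2 CPM scale, each called by edgeR. Higher levels went with larger falls across the 77 core genes (Pearson r = -0.50 between log2 fold change and log2 mean TPM), where both measures come from the same libraries. TPM is a level per transcript length, and shorter core genes also fell more, as given below, so level and length were not separated here.

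The falls of 69 core genes lay between 1.2-fold and 2-fold, and 4 genes, Rpl4, Rps9, Rpl10 and Rpl5, differed by less than 1.2-fold. Rpl10, which joins the subunit late in its assembly, had 1664 and 1707 CPM in saline and 1494 and 1461 CPM in vanoxerine, a log2 fold change of -0.19 ± 0.03 (edgeR adjusted p = 0.0081). Rps9, a small-subunit protein, had 985 and 1053 CPM against 887 and 890 CPM, with -0.20 ± 0.04 (edgeR adjusted p = 0.017). The groups did not overlap for these genes on the CPM scale. On the TPM scale the order was turned without a call (limma adjusted p = 0.28 for Rps9 and 0.25 for Rpl10): Rps9 had 2496 and 2800 TPM in saline and 2896 and 2827 TPM in vanoxerine. The calls of Rpl10 and Rps9 were lost when a vanoxerine library was left out, as were those of Rpl4, Rpl15, Rpl3, Rps3 and Rps3a1. Rpl4, Rpl15, Rpl3, Rps3 and Rps3a1 came next, at -0.26 to -0.30. For Rpl3 this rank held only for summed reads (-0.29): its log2 fold change was -0.67 with the length offset, -0.43 on log2(TPM + 1) and -0.66 in the authors' deposited table. A 460-base Rpl3 transcript went from 399 and 503 TPM in saline to 0 and 0 in vanoxerine. On TPM the main 1351-base transcript was not lower, with 959 and 955 TPM against 997 and 975 TPM. Its reads were lower, at 102893 and 98867 in saline and 82837 and 77692 in vanoxerine. Each of the genes named in this paragraph had a main transcript above 658 bases, the limit between the shorter and the longer core genes used below.

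Rpl5 was the core gene that was not called. Its protein binds the 5S ribosomal RNA together with Rpl11, and in that complex it also restrains Mdm2. It had 398 and 476 CPM in saline and 402 and 398 CPM in vanoxerine, a log2 fold change of -0.13 ± 0.08 (edgeR adjusted p = 0.29), and the groups overlapped. Rpl11 had 718 and 815 CPM against 584 and 569 CPM and was called lower at -0.41 ± 0.06 (edgeR adjusted p = 0.0047).

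The Rpl5 value depended on where its reads were placed. The coding sequence of Rpl5 on chromosome 5 (894 bases) matched Gm15500, a transcribed processed pseudogene at chr7:114705217-114706235, without a mismatch. Their first 60 coding bases, and those of Rpl10a and Rpl10a-ps1, are shown because reads from such stretches cannot be assigned to a single locus.
Rpl5: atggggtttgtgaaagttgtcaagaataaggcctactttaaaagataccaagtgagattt
Gm15500: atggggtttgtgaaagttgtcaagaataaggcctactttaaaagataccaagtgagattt
Rpl10a: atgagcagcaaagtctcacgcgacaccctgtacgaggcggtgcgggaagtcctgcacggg
Rpl10a-ps1: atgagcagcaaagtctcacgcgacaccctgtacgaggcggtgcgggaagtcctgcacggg

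Gm15500 was listed with 128305 and 128239 reads in saline and 75697 and 71894 in vanoxerine. Rpl5 itself had 30436 and 33908 against 27850 and 26209 reads, so most reads of the shared sequence were assigned to the pseudogene. With the reads of all similar pseudogenes added to their parent genes, Rpl5 reached 2084 and 2283 CPM in saline and 1499 and 1494 CPM in vanoxerine. Its log2 fold change was then -0.55 ± 0.05 (edgeR adjusted p = 0.00046), and all 77 core genes were called lower, against 16.7% of all genes in that fit. This alternative was chosen after the data were seen, and it takes pseudogene transcripts of at least 90% identity to the member over at least 50% of their length.

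Rpl10a went the other way. Its coding sequence of 654 bases was identical to that of Rpl10a-ps1 on chromosome 1. Copies of Rpl10a held 87.6 and 151 CPM in saline and 247 and 231 CPM in vanoxerine, higher in vanoxerine while the gene was lower. For gene and copies together, the values were 1070 and 1146 CPM against 750 and 740 CPM, and the log2 fold change was -0.58 ± 0.05 (edgeR adjusted p = 0.00027) instead of -0.97. Rpl12 and its copies had 1576 and 1743 CPM against 1097 and 1106 CPM, of which 72.1% was on copies, and changed by -0.60 ± 0.05 in place of -0.52. For Rpl28 the fall was -0.96 with copies and -0.87 without. In the whole core 11 genes had over 10% of their reads on copies, 5 shifted by over 0.1, and the log2 fold changes with copies lay between -1.24 and -0.20.

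**Figure D3:**
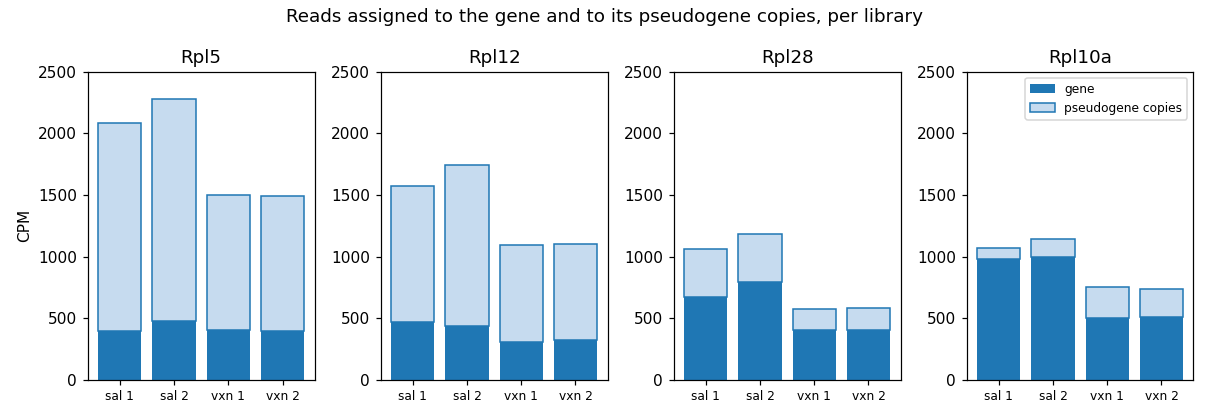
CPM assigned to the gene (dark) and to its pseudogene copies (light) in each library, for Rpl5, Rpl12, Rpl28 and Rpl10a, with sal for saline and vxn for vanoxerine. The summed bars are lower in both vanoxerine libraries for all 4 genes, while the dark part of Rpl5 is level, at 398 to 476 CPM, and the light part of Rpl10a is higher in vanoxerine, at 247 and 231 CPM against 87.6 and 151 CPM.

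The scale also changed the number of calls. On log2(TPM + 1) with limma-trend, the median of all tested genes moved to 0.23 and that of the core to -0.40, with 58 core genes lower and 1 higher, where 5.32% of all genes were lower and 28.7% higher. The other 18 core genes were not called there. Both vanoxerine TPM values lay below both saline values in 71 of 77 core genes. The exceptions were Rps15a, Rps3a1, Rpl4, Rps9, Rpl10 and Rpl5. With TPM rescaled over genes outside the set, chosen after the data were seen, the core median was -0.54 and the median of all genes 0.10. An offset for mean transcript length in edgeR gave a core median of -0.64 and 73 core genes lower and 1 higher, against 9.07% and 13.9% of all genes.

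The higher gene was in each case Rps15a, a small-subunit protein (chr7:118104372-118116188). Its reads fell from 87440 and 89548 in saline to 54775 and 51024 in vanoxerine, with a log2 fold change of -0.62 ± 0.05 in edgeR (adjusted p = 0.00046). Its TPM rose from 2310 and 2468 to 4304 and 4173 (log2 change 0.83, limma adjusted p = 0.0051). Of that, 2561 and 2474 TPM in vanoxerine came from a transcript of 250 bases with an effective length of 19 bases. Salmon gave this transcript 3633 and 3370 reads in vanoxerine and 0 and 0 in saline. The main Rps15a transcript of 640 bases had 2302 and 2459 TPM in saline and 1737 and 1693 TPM in vanoxerine, so it was lower in both units. The authors' deposited table gave Rps15a a log2 fold change of 0.58 (adjusted p = 9.1e-13).

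Other genes, picked after their values were seen, also shifted between annotated transcripts. In Rpl41, the 437-base transcript held 70.3% and 60.9% of the gene's reads in saline and 42.03% and 45.4% in vanoxerine, while the 544-base transcript held 23.3% and 29.7% against 48.3% and 46.3%. For Rpl28, a 312-base transcript went from 34.6% and 32.2% to 16.4% and 17.1%. In Rpl3, a 460-base transcript had 8127 and 9831 reads in saline and 0 and 0 in vanoxerine. Each of these shifts was away from a short transcript in vanoxerine, unlike Rps15a, and none was tested.

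Length moved with the changes over the whole set. The 39 shorter core genes (main transcript of 382 to 658 bases) had a median log2 fold change of -0.67, and the 38 longer ones (661 to 1908 bases) had -0.49. Across the 77 core genes, log2 fold change against log2 transcript length gave Pearson r = 0.53. Protein-coding genes outside the set showed a like order: the 217 with an effective length under 300 bases had a median of -0.37, with 36.9% called lower, and the 7451 over 2000 bases had 0.15, with 11.4% lower. Within each length class the core was lower than the other genes, at -0.78 against -0.37 under 300 bases, -0.58 against -0.24 from 300 to 600, and -0.50 against -0.12 from 600 to 1000.

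Replicates also differed by length in saline. Between saline 2 and saline 1 the median log2 ratio outside the set was 0.11 under 300 bases and -0.03 over 2000 bases, and that of the core was 0.12, with 75 of 77 core genes higher in saline 2. From vanoxerine 1 to vanoxerine 2 the same medians were -0.01, 0.01 and -0.01. The offset given above covers only shifts in a gene's own mean length between libraries, and not a trend across genes of different length. The part of that trend in the core's change was not tested. Against saline 1 alone the core median was -0.50, and against saline 2 alone it was -0.65.

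**Figure D4:**
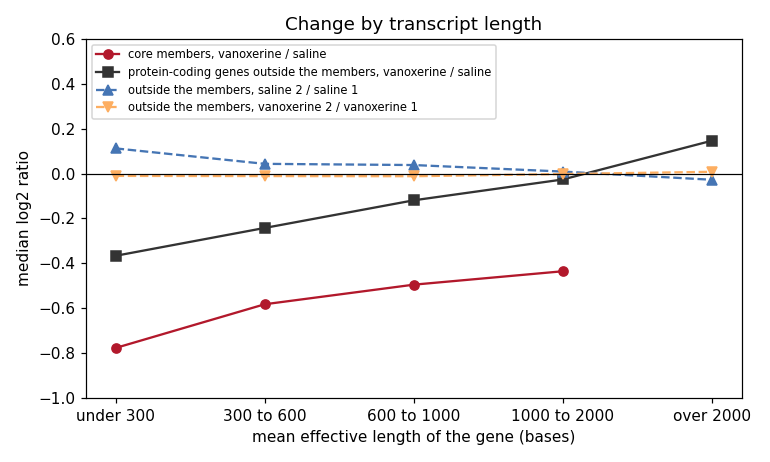
Median log2 ratio by effective length of the gene, for core genes (red) and protein-coding genes outside the set (black) in vanoxerine over saline, and outside the set between the libraries of each group (dashed). The red line stays below the black line in each class that holds core genes, from -0.78 against -0.37 under 300 bases to -0.44 against -0.03 at 1000 to 2000 bases, where it rests on 2 genes.

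Of the 8 paralogues, Rpl10l and Rps27rt had 0 reads. Of the 6 tested, 1 was lower and 0 were higher, with a median log2 fold change of -0.07. That count is near the background of 15.9% lower among all tested genes. Rpl36al, a near-identical relative of Rpl36a, was the lower one, with 229 and 249 CPM in saline and 178 and 170 CPM in vanoxerine (-0.46 ± 0.06, edgeR adjusted p = 0.0019). Rpl36a itself had 432 and 467 CPM against 271 and 265 CPM, at -0.75.

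Rps27l, a p53-induced relative of Rps27, had 103 and 103 CPM in saline and 100.1 and 99.3 CPM in vanoxerine (-0.05 ± 0.05, edgeR adjusted p = 0.48). Rps27 had 895 and 1024 CPM against 550 and 555 CPM and was lower at -0.80 ± 0.07 (edgeR adjusted p = 0.00043). On the TPM scale Rps27l was higher, at 0.20 (limma adjusted p = 0.039). On that scale the median of all tested genes was 0.23, and 28.7% of them were called higher. The difference between the members of this pair was not tested.

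Rpl22l1, the relative of Rpl22, had 117 and 90.4 CPM in saline and 95.8 and 103 CPM in vanoxerine, so the groups overlapped (-0.06 ± 0.12, edgeR adjusted p = 0.74). Without saline 1 it was higher, at 0.14 (edgeR adjusted p = 0.024). Rpl22 had 516 and 590 CPM against 376 and 360 CPM, at -0.59. Rpl7l1, whose yeast relative works in assembly of the large subunit, had 112 and 113 CPM against 107 and 107 CPM (-0.07 ± 0.05, edgeR adjusted p = 0.27).

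The muscle form Rpl3l had 58 and 52 reads in saline and 35 and 35 in vanoxerine, and the testis form Rpl39l had 13 and 14 against 13 and 35. Neither was called by edgeR, with adjusted p of 0.41 and 0.40, and the depth of these genes allows no finer statement. Rps19bp1 had 30.3 and 31.4 CPM against 24.0 and 22.2 CPM and was lower at -0.42 ± 0.08 (edgeR adjusted p = 0.0085), a call that was lost without a vanoxerine library (adjusted p up to 0.13).

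Fau and Rack1, ribosome components outside the naming rule, were lower too, on the CPM and the TPM scale. The product of Fau is a ubiquitin-like protein fused to Rps30, and the gene had 1192 and 1209 CPM in saline and 671 and 690 CPM in vanoxerine (-0.82 ± 0.04, edgeR adjusted p = 5.2e-05). Rack1, a scaffold on the small subunit, had 2138 and 2264 CPM against 1643 and 1638 CPM (-0.42 ± 0.04).

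The snoRNA host genes, most of which carry the same start motif and guide RNAs for ribosomal RNA modification in their introns, were lower in 11 of 11 tested cases with a median of -0.66 (-0.46 on TPM, 6 lower). Snhg8 was at -0.90, Snhg12 at -0.86, Snhg6 at -0.67 and Gas5 at -0.66. Nucleolar assembly factors were lower in 30 and higher in 1 of 52 genes with a median of -0.23, but on TPM the median was 0.03, with 3 lower and 5 higher. Nhp2, a snoRNP protein, was at -0.73, its partner Nop10 at -0.64, and Npm1, the nucleolar histone chaperone, at -0.48. Mitochondrial ribosomal protein genes were lower in 49 of 78 cases and higher in 0, with a median of -0.30 on CPM and -0.02 on TPM, where 9 were lower and 6 higher. Mrpl54 was at -0.73 and Mrpl12 at -0.63. Beside these lists, 15.9% of all tested genes were lower and 21% higher on CPM, with a median of -0.01. On TPM the shares were 5.32% and 28.7%, and the all-gene median of 0.23 lay above the median of each of these lists.

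Other translation genes were mixed, and their counts stand beside 15.9% lower and 21% higher among all tested genes on CPM, and 5.32% lower and 28.7% higher, with an all-gene median of 0.23, on TPM. Elongation factors were lower in 3 of 9 cases, all subunits of the exchange factor of eEF1A: Eef1d at -0.46, Eef1b2 at -0.45 and Eef1g at -0.40. On TPM these 3 stayed lower and 3 others were higher. Initiation factors were lower in 18 and higher in 6 of 36 cases with a median of -0.16, which was 0.13 on TPM with 1 lower and 12 higher. Eif3g was at -0.44 and Eif5b at 0.41. RNA polymerase I genes were lower in 5 and higher in 1 of 15, with a median of -0.11 (0.07 on TPM, 0 lower and 5 higher), and Polr1d was at -0.42. Quality control and nascent chain factors were lower in 3 and higher in 2 of 10, with a median of -0.03 (0.21 on TPM, 0 lower and 2 higher), and Btf3, a subunit of the nascent polypeptide-associated complex, was at -0.38.

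Genes of mTORC1 and of the control of pyrimidine-run mRNAs were lower in 5 and higher in 4 of 20 cases, with a median of 0.01 (0.26 on TPM, 2 lower and 7 higher). The same all-gene shares apply: 15.9% lower and 21% higher on CPM, and 5.32% and 28.7% on TPM. The all-gene TPM median of 0.23 was near that of this list. Ddit4, a stress-induced inhibitor of mTORC1, had 300.1 and 310 CPM in saline and 154 and 152 CPM in vanoxerine (-0.996 ± 0.04, edgeR adjusted p = 4.9e-05). Eif4ebp1, the repressor of cap-dependent initiation that mTORC1 phosphorylates, had 284 and 297 CPM against 182 and 186 CPM (-0.66 ± 0.05, edgeR adjusted p = 0.00021). Both also fell on TPM. Larp4, a poly(A)-binding protein that stabilises mRNAs, was at 0.41.

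**Figure D5:**
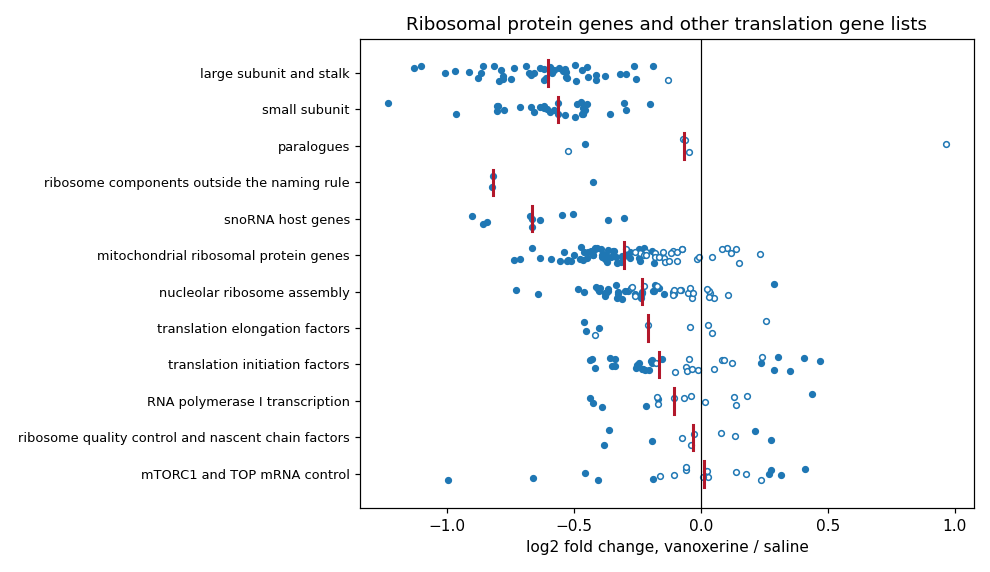
Log2 fold change of each tested gene in the classes of ribosomal protein genes and in the other translation gene lists, with filled points for genes called by edgeR and a red bar at the median. The median of the large subunit with the stalk lies at -0.60 and that of the small subunit at -0.56, the paralogues at -0.07, and the other lists between -0.82 and 0.01.

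Markers of several cell types differed in the same comparison, and others were mixed. Among all tested genes 15.9% were lower and 21% higher on CPM, and 5.32% and 28.7% on log2(TPM + 1). The lower counts of B cell and proliferation markers lay near the CPM share. Macrophage markers were higher in 10 of 10 cases, with summed levels of 770 and 811 CPM in saline and 3970 and 3988 CPM in vanoxerine. Erythroid markers were lower in 7 of 7, from 13969 and 15082 to 6248 and 5903 CPM. Neutrophil markers were lower in 5 of 8 and fibroblast markers in 8 of 10, with 1 fibroblast marker higher. T cell markers were lower in 3 and higher in 1 of 10, with summed levels of 551 and 567 against 495 and 479 CPM, and B cell markers lower in 1 and higher in 1 of 5. Endothelial markers were lower in 4 and higher in 1 of 8, with level sums of 141 and 140.2 against 143 and 145 CPM. Proliferation markers were lower in 2 of 10 and higher in 0, with summed levels of 1889 and 1883 against 1881 and 1862 CPM. On log2(TPM + 1) proliferation markers were lower in 0 and higher in 4. Fibroblast and neutrophil markers were each lower in 5 and higher in 1 on that scale. T cell markers were lower in 1 and higher in 1 there, endothelial markers in 3 and 1, and B cell markers in 0 and 1. Macrophage markers were higher in 9 and erythroid markers lower in 5. The part of these markers in the ribosomal protein result was not tested. With haemoglobin reads left out, the ribosomal protein share of reads was 10.1% and 11.1% against 6.72% and 6.67%, and as a share of protein-coding reads without mitochondrial genes it was 10.97% and 11.8% against 7.19% and 7.16%.

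In the authors' deposited table all 77 core genes were present, 74 of them lower and 1 higher at an adjusted p under 0.05, against 14.8% and 20.3% of its genes with an adjusted p. The median core log2 fold change in the authors' deposited table was -0.63, and that of all its genes -0.0039. Its values come from the same libraries and are no separate evidence.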

How the data were processed

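Snap-frozen MC38 tumours, 2 saline and 2 vanoxerine, gave total RNA that was sequenced from TruSeq RNA v2 libraries on a NextSeq 500, per the labels' protocols. The submitters' processing notes name GRCm38, DESeq2, fastp and Salmon 1.3.0. Their settings, the strand setting and the annotation release were not given in the sources used here. For each transcript the authors deposited an effective length in bases, a TPM and Salmon's estimated count, per the file headers. The authors' deposited comparison table holds, per the file headers, raw and adjusted p-values, a log2 fold change and a base mean signal. Its 4 per-library FPKM columns match no sample and were not used.

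Transcripts were joined to GENCODE M21 genes (139791 of 140992 matched), and estimated counts were summed and rounded. They were compared with edgeR 4.0.16 (TMM, minimum count 10, minimum total 15, quasi-likelihood test without a block, adjusted p under 0.05, R 4.3.3), which was tested on simulated data. Standard errors came from edgeR's F statistic. The simulated data held far fewer changed genes than were called here and no trend with length, so they do not speak to those features. Alternatives were median-of-ratios, upper-quartile and library-total scaling, filters, DESeq2 1.42.0, limma-voom and limma-trend on log2 TPM (limma 3.58.1, mean TPM of at least 1, pseudocount 1), a length offset, protein-coding genes only, a replicate block, leaving out each library, and pseudogene reads added. Where a library was left out, its lone partner was assumed to vary like the other group.

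Members and gene lists were chosen with earlier results of these data known. The genes named are the 10 largest falls, the 5 highest and 5 lowest mean TPM, tested paralogues, ribosome components outside the naming rule, and up to 4 genes per list by smallest p. A few genes taken by this rule are left out of the text. Others, among them those with the smallest falls, were chosen after their values were seen. Reads of near-identical genes are divided by Salmon's estimate, so such values are less certain than the depth implies.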

Additional observations from a re-analysis of the deposited data

How the results depend on the processing

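The 78 lower ribosomal protein genes numbered 36 on log2(TPM + 1) without a filter, where 24 of 46 large-subunit and stalk genes and 11 of 31 small-subunit genes were lower; under every other setting the count stayed within 1.5 times, with 69 to 79 when a library was left out. The count of higher genes, 0, was 1 with the length offset, with unfiltered TPM, and with TPM rescaled outside the set, 2 on log2(TPM + 1) and on log2(TPM + 0.1), and 0 to 1 without a library. Paralogues lower were 3 with upper-quartile factors, 2 with similar pseudogenes added and 1 to 2 without a library. Paralogues higher were 1 on either filtered TPM scale and 0 to 1 without a library. The core median was -0.72 with upper-quartile factors, which also moved the median of all genes to -0.14. It was -0.40 on each TPM scale apart from the one rescaled outside the set, which gave -0.54. The difference in TPM share, -5.85 percentage points, was -7.37 with pseudogenes included and -8.57 of protein-coding TPM without mitochondrial genes.

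Among the other translation genes, 127 lower became 76 with the length offset, 27 on both filtered TPM scales, 17 on unfiltered TPM, 49 on rescaled TPM and 42 to 153 without a library. The 14 higher became 5 with upper-quartile factors, 9 with library totals, 6 with the length offset, 40 and 41 on filtered TPM, 7 on rescaled TPM and 4 to 26 without a library.

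Of 586 single-gene results over the alternatives fitted gene by gene, 521 kept direction and call, 33 lost the call, 5 gained it and 27 reversed. Reversals on log2(TPM + 1), with and without a filter, and log2(TPM + 0.1) were Rps15a (0.8277 and 0.8279), Rpl7l1 (0.2478 and 0.2512), Rps27l (0.1977 and 0.1983), Rpl5 (0.161 and 0.1613), Rps9 (0.1144) and Rpl10 (0.0627). On rescaled TPM they were Rps15a (0.69), Rpl7l1 (0.11), Rps27l (0.0616) and Rpl5 (0.0246). With the length offset they were Rps15a (0.59) and Rpl7l1 (0.0115). Without a library Rpl22l1 ranged from -0.22 to 0.14 and was above 0 without saline 1 and without vanoxerine 1 (0.0033), and Rpl5 ranged from -0.25 to 0.0188, its value without saline 2. Apart from Rps15a and what the construction of each setting shows, the cause was not tested.

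The replicate block gave 78 members lower. Same-numbered libraries did not deviate together (r = -0.039 over 9871 genes), so the numbers were not taken as pairs. With 2 libraries per group, the spread rests on few values.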
